A study of Canis lupus familiaris with 10 samples.

Results

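The angiogenesis and hypoxia genes described here were looked up by symbol in the expression table of a canine tumour study, and 4 of the 9 symbols sought were among its 800 genes: VEGFA, VEGFC, KDR and HIF1A. VEGFB, FLT1, ANGPT1, ANGPT2 and TEK had no row in that table and were not analysed here. HIF1A was about 2-fold higher in late than in early tumours, with no overlap between the stages, whereas the differences of VEGFA, VEGFC and KDR did not pass the test.

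The samples came from canine cutaneous histiocytoma (CCH). This benign tumour arises from Langerhans cells, the dendritic cells of the epidermis, and commonly regresses on its own as lymphocytes enter it. Archived formalin-fixed, paraffin-embedded (FFPE) tumours of 10 privately owned dogs of several breeds were compared, 5 early tumours of group 1 and 5 late, lymphocyte-enriched tumours of group 3 in the scheme of Cockerell & Slauson. The tumours were spontaneous, and the labels name neither a treatment nor a genotype. The 4 early dogs with a recorded age were 0.5, 0.75, 3 and 5 years old, and the 5 late dogs were 1.5, 2, 2.5, 7 and 9 years old. RNA was measured on the nCounter Canine IO Panel. Barcoded probes are hybridised to the transcripts and counted one by one without amplification, and the deposited values are normalized counts. Each sample came from 1 tumour, so the spread within a stage holds differences between dogs as well as technical error.

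Blood vessel growth in tissue is driven largely by the VEGF family. VEGFA is the main ligand for vessel sprouting and permeability, VEGFC is the ligand best known for lymphatic vessels, and KDR, or VEGF receptor 2, is the endothelial receptor through which VEGFA chiefly signals. HIF1A encodes the oxygen-regulated subunit of hypoxia-inducible factor 1, which activates VEGFA and many glycolytic genes when oxygen is low. HIF-1 activity is set mostly by the stability of the protein, which a transcript count does not measure.

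All 4 genes lay above background in every sample. Background was set per sample at 2 SD above the mean of 8 negative control probes, which gave 21.8 to 38.2 normalized counts in early and 19.2 to 26.9 in late samples. The lowest value of the set relative to background was KDR in early replicate 5, at 2.41 times background and 45 counts before normalization. The counts behind all genes summed to 484696 to 823763 per early and 945399 to 1253083 per late sample, so early tumours were measured at lower depth. The share of RNA fragments over 200 bases (DV200) was 64.5 to 71.2% in early and 71.2 to 75.8% in late samples, as labelled. For late replicate 5 the study's sample table gives another value than the label, which was not used here. The brightest positive control probe exceeded the next one 2.09 to 2.17 times in early and 2.72 to 2.84 times in late samples. According to the study's sample tables, the early samples shared a cartridge, the late samples shared another, and every late block had been stored longer than every early one, so stage cannot be told apart from cartridge or storage time.

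VEGFA, the main vessel growth factor, varied more between dogs than between stages. Its normalized counts in early replicates 1 to 5 were 334, 594, 545, 214 and 551. In late replicates 1 to 5 they were 505, 751, 542, 296 and 1167. Late replicate 5 had the highest value and early replicate 4 the lowest, and the early and late medians were 545 and 542. The means were 448 ± 165 (SD, n = 5) in early and 652 ± 330 in late tumours. The log2 fold change of early over late was -0.49 (SE 0.40, 95% confidence interval -1.37 to 0.38, limma Benjamini-Hochberg [BH] adjusted p = 0.351), where a negative value means a higher level in late tumours. Counting error, at most 0.13 as a log2 SD in any sample, was small beside the log2 SD between dogs of 0.63 in early and 0.73 in late tumours.

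VEGFC, the lymphatic vessel growth factor, tended to lower values in early tumours with overlap. The early normalized counts were 202, 459.7, 252, 316 and 288 in replicates 1 to 5. The late ones were 597, 312, 404, 563 and 443. Early replicates 2 and 4 exceeded late replicate 2, and late replicates 1 and 4 lay above all early tumours. The means were 304 ± 97.2 (SD, n = 5) and 464 ± 117, and the log2 fold change was -0.63 (SE 0.26, limma BH adjusted p = 0.0817). Without early replicate 2 it was -0.79 (limma BH adjusted p = 0.0284). Without late replicate 2 it was -0.76 (limma BH adjusted p = 0.0499). The call for VEGFC thus turned on either of these 2 samples. VEGFC was called only in these 2 of 27 alternatives, and its difference was smaller under the 4 other scalings.

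KDR, the receptor, had the lowest counts in proportion to background and did not pass the test. Its normalized counts were 118, 181, 171, 178 and 85.3 in early replicates 1 to 5. In late replicates 1 to 5 they were 165, 243, 186, 219 and 143. Early replicates 1 and 5 were below all late tumours, and late replicates 2, 3 and 4 were above all early ones. The means were 147 ± 42.8 (SD, n = 5) and 191 ± 40.6. The log2 fold change was -0.41 (SE 0.26, 95% confidence interval -0.99 to 0.17, limma BH adjusted p = 0.243).

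HIF1A separated the stages. The early normalized counts were 902, 1145, 799, 774 and 868 in replicates 1 to 5. The late ones were 1540.4, 1904, 1869.6, 2063 and 1591. Every late tumour lay above every early tumour, with a gap between 1145 and 1540.4. The means were 898 ± 148 (SD, n = 5) and 1794 ± 221, and the log2 fold change was -1.003 (SE 0.15, 95% confidence interval -1.34 to -0.67, limma BH adjusted p = 0.00167). The log2 SD between dogs was 0.22 in early and 0.18 in late tumours, lower than for the other 3 genes in both stages. The study's stricter criterion was a difference of 2-fold or more with a p of 0.05 or less after Benjamini-Yekutieli (BY) adjustment. HIF1A also met it in the limma fit used here, which was not the study's own test (limma BY adjusted p = 0.0120). Its difference was close to the 2-fold limit, and this criterion was met in 12 of 27 alternatives and under none of the 4 other scalings, where the difference was below 2-fold.

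**Figure D1:**
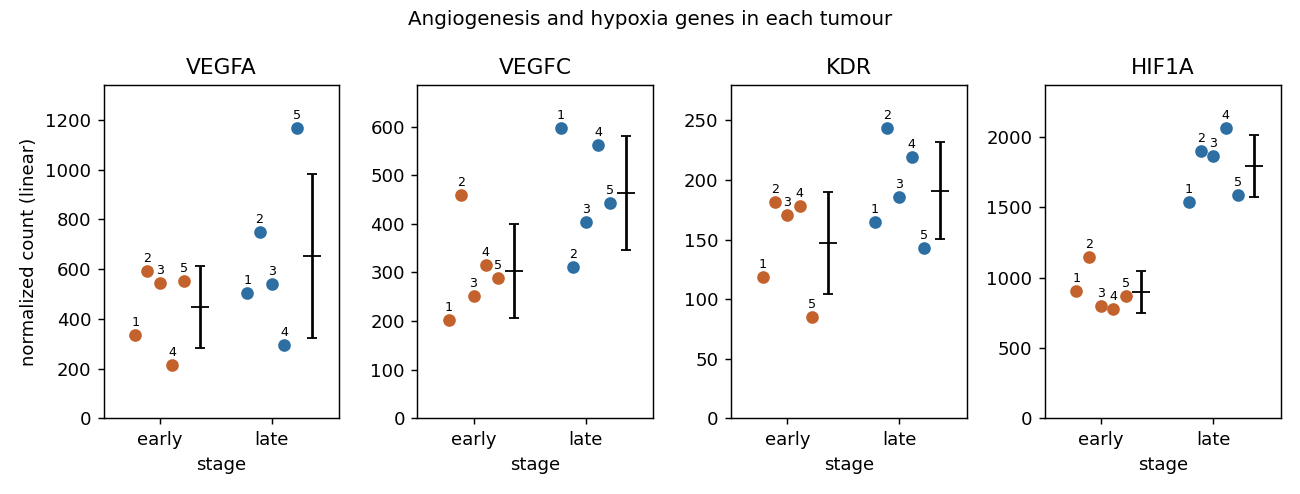
Normalized count (linear axis from 0) of VEGFA, VEGFC, KDR and HIF1A in each tumour, early in orange and late in blue, with replicate numbers above the points and the mean ± SD of 5 tumours as black bars. The stages overlap for VEGFA, VEGFC and KDR, while the late HIF1A values of 1540.4 to 2063 all lie above the early ones of 774 to 1145.

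One gene of the 4, HIF1A, was called at a BH adjusted p of at most 0.05, in the direction of higher in late, beside 27.3% of the 761 genes tested that were called in that direction. None of the 4 was called higher in early, beside 8.41% of all tested genes. HIF1A was also the 1 gene of the 4 that passed the stricter BY and 2-fold criterion, beside 9.2% of all tested genes higher in late, and the 1 gene whose stages did not overlap, beside 19.2%. Their median log2 fold change was -0.56, beside -0.18 over the 761 genes.

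The deposited scaling placed most called genes on the late side, and other scalings moved this balance. Of the genes called at BH, 76.5% were higher in late as deposited, 57.1% with trimmed mean of M-values (TMM) scaling, 51.4% with total scaling, 44.4% with quantile scaling and 44.1% with geometric mean scaling. The median difference over the 761 genes moved with it, from -0.18 to 0.21. Relative to that median HIF1A lay at -0.83 to -0.82 on the log2 scale under the deposited scaling and the 4 others. Under 3 of the 4 others, which multiply whole samples, this near constancy follows from the scaling itself. It was called at BH under each of these scalings, with its own log2 fold change at -1.003 as deposited and between -0.81 and -0.61 under the 4 others. By the same measure, VEGFC lay at -0.45 to -0.26, VEGFA at -0.32 to -0.19 and KDR at -0.23 to 0.02. Unlike HIF1A, VEGFA and KDR changed sign under quantile scaling, to 0.02 and 0.23. The log2 fold change of VEGFC itself was -0.43 under TMM scaling and -0.056 under quantile scaling. It was not called under any of the 4 others (limma BH adjusted p = 0.176 to 0.870).

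**Figure D2:**
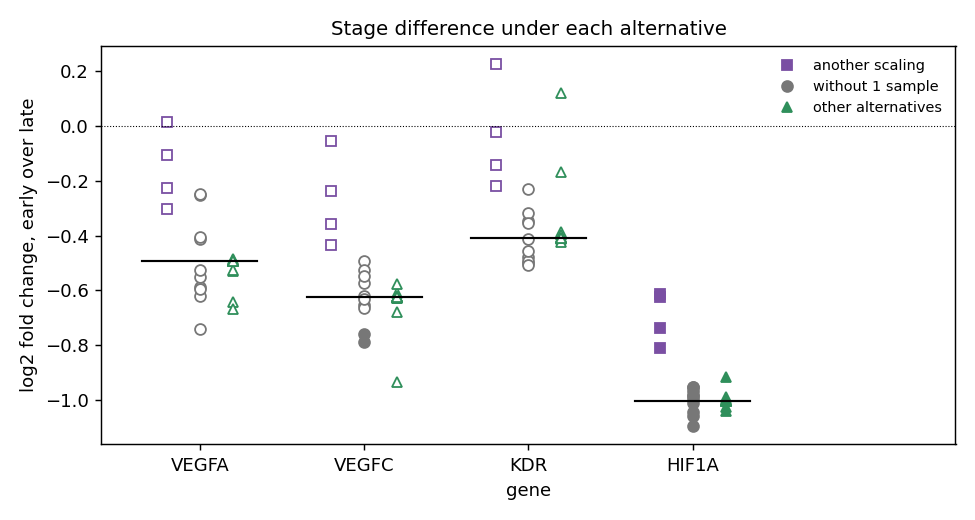
Log2 fold change of early over late (vertical axis) of each of the 4 genes under 27 alternatives, with squares for 4 other scalings, circles for leaving out 1 sample, triangles for the remaining alternatives, filled symbols for calls at a BH adjusted p of at most 0.05 and a black line for the value as reported. HIF1A stays below 0 and filled throughout, from -1.09 to -0.61, and VEGFC is filled for 2 circles.

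Ratios between members within a sample do not depend on a factor that multiplies the whole sample, but quantile scaling changes them. The log2 ratio of KDR to HIF1A was -2.65 ± 0.50 (SD, n = 5) in early and -3.24 ± 0.19 in late tumours, a difference of 0.59 with a two-sided exact permutation p = 0.0556. The ratio of VEGFC to HIF1A differed by 0.38 (exact permutation p = 0.183) and that of VEGFA to HIF1A by 0.51 (exact permutation p = 0.317). The remaining 3 ratios, VEGFA to VEGFC, VEGFA to KDR and VEGFC to KDR, differed by 0.13, -0.08 and -0.22. For these 6 ratios the smallest p that 5 tumours against 5 allow is 0.00794, and none passed 0.05 before adjustment under the deposited scaling. Under quantile scaling, tried for the ratios after the data had been seen, KDR to HIF1A differed by 0.85 (exact permutation p = 0.00794, the smallest possible) and VEGFC to HIF1A by 0.57 (exact permutation p = 0.0397), while the other 4 had an exact permutation p of 0.183 to 0.921. After BH adjustment over the 6 ratios, KDR to HIF1A had an exact permutation p of 0.333 as deposited and 0.0476 under quantile scaling. VEGFC to HIF1A had an adjusted exact permutation p of 0.548 and 0.119, so it passed under neither. Both differences kept their sign, and whether KDR to HIF1A passed 0.05 depended on the scaling.

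KDR was read beside other genes of the vessel wall. Of the 18 genes of an endothelial list, 8 were in the table and all were tested. CDH5, CD34 and ICAM2 rose in late tumours, 3 of 8 beside 27.3% of all tested genes, and the other 5 did not pass the test. Under the 4 other scalings 1 or 2 of the 8 were called, all higher in late, beside 18.9 to 23.3% of all tested genes. The list median log2 fold change was -0.45 beside -0.18 for all tested genes. CDH5, the cadherin of endothelial junctions, was 22.7 to 36.2 normalized counts in early and 37.8 to 74.3 in late tumours (log2 fold change -0.98, SE 0.22, limma BH adjusted p = 0.00808). It exceeded background in 2 of 5 early tumours, so its early level was near the floor of the assay. CD34, a surface marker of vessels and progenitor cells, was 228 to 383 in early and 469.9 to 709 in late tumours (log2 fold change -0.87, limma BH adjusted p = 0.0107), and was called under 2 of the 4 other scalings. ICAM2, an adhesion molecule of endothelium and leukocytes, had a log2 fold change of -0.88 (limma BH adjusted p = 0.0180) and was not called under any of the 4 other scalings. PECAM1, the adhesion molecule between endothelial cells, had a log2 fold change of 0.05 (limma BH adjusted p = 0.901) and was named after its value was seen. With DV200 as a covariate, or with male dogs only, CDH5, CD34 and ICAM2 were not called. DV200 was 64.5 to 71.2% in early and 71.2 to 75.8% in late samples. The male fit held 3 early and 4 late dogs. Both fits hold less information on stage, so a lost call does not show dependence on RNA quality or sex, here or below. THBD, or thrombomodulin, and SELE, or E-selectin, were at -0.66 and -0.24 (limma BH adjusted p = 0.250 and 0.712).

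Within each stage, tumours with more KDR had more of several vessel genes. Likeness was measured as the Pearson correlation of log2 values after removing each stage's mean, over the 10 tumours, and is a description of tumours that share stage, cartridge and scaling. KDR had a median r of 0.53 with the 8 endothelial genes, beside 0.13 with all tested genes, and 7 of the 8 were above 0. CDH5 was at 0.78, THBD and MCAM at 0.60 and CD34 at -0.08. The 3 genes of the whole table most like KDR were FYN, a Src family kinase (r = 0.84), SELE (0.81) and PTK2, the focal adhesion kinase (0.78). In bulk tissue, fewer endothelial cells and less RNA per endothelial cell cannot be told apart.

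The angiogenic factors and receptors other than the members did not move as 1 group. Of 33 listed genes 20 were in the table, of which 5 rose in late tumours, ITGAV rose in early tumours and 14 did not pass the test. These shares, 5 of 20 and 1 of 20, stand beside 27.3% and 8.41% of all tested genes. The 4 other scalings called 2 or 3 genes higher in early and 2 to 4 higher in late, beside 17.5 to 25.4% and 18.9 to 23.3% of all tested genes under the same scalings. The list median was -0.22, near the -0.18 of all tested genes, and it turned positive under geometric mean, quantile and total scaling. ETS1, a transcription factor of endothelial cells and lymphocytes, had the largest difference of the list, with 540.1 ± 458 (SD, n = 5) in early and 2142 ± 266 in late tumours (log2 fold change -2.47, SE 0.56, limma BH adjusted p = 0.00831). FGFR1, a fibroblast growth factor receptor, was 100.5 to 254 in early and 369 to 1033 in late tumours (log2 fold change -1.98, SE 0.32, limma BH adjusted p = 0.00224). NOTCH1, a receptor that restrains sprouting and also acts in T cells, was 163 to 265 in early and 440.2 to 479 in late tumours (log2 fold change -1.05, SE 0.17, limma BH adjusted p = 0.00195). With DV200 as a covariate ETS1 and NOTCH1 were not called (limma BH adjusted p = 0.261 and 0.0803), nor was NOTCH1 under quantile scaling (limma BH adjusted p = 0.107).

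FGFR1 and NOTCH1 were the 2 genes of the list that met the BY and 2-fold criterion, both higher in late. These 2 of 20 stand beside 9.2% of all tested genes. TGFB2, a transforming growth factor, and CXCL12, a chemokine of stromal cells, had log2 fold changes of -1.14 and -1.08 (limma BH adjusted p = 0.0186 and 0.0376). TGFB2 was called under 1 of the other 4 scalings. CXCL12 was called under none of them and was called in 3 of 10 fits that left out 1 sample. ITGAV, an integrin subunit of vessels and many other cells, was higher in early tumours with a log2 fold change of 0.52 (limma BH adjusted p = 0.0308). It stayed higher in early in all 10 fits that left out 1 sample, at 0.42 to 0.61, and was called in 4 of them. With DV200 as a covariate, or with male dogs only, TGFB2, CXCL12 and ITGAV were not called. CXCL8 and PLAU, the chemokine interleukin 8 and the urokinase protease, were at -1.36 and -1.04 (limma BH adjusted p = 0.230 and 0.0777). CXCL8 was called in 1 of 27 alternatives, the fit without early replicate 2, and ran from -2.18 to -0.90 on leaving out 1 sample. PLAU was called in 5 of the 27, of which 2 left out 1 sample. These genes had no common relation to VEGFA within stages (median r = 0.12, 14 of 20 above 0, 10 tumours), and somewhat more to VEGFC (median r = 0.31, 15 of 20 above 0), beside medians over all tested genes of 0.02 and 0.10.

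Genes of the hypoxia response list moved in both directions while HIF1A rose in late tumours. Besides oxygen and glycolysis genes, the list holds the coactivator CREBBP, EP300, MTOR and the adenosine genes NT5E, ADORA2A and ENTPD1. All calls higher in early as deposited were adenosine genes, so the split is one of the list rather than of a single response. The listed CA9, LDHA, SLC2A1 and PGK1 were not in the table. Of 31 listed genes 10 were in the table, of which NDRG1 and GPI rose in late, ADORA2A, NT5E and ENTPD1 rose in early and 5 did not pass the test. These shares, 2 of 10 and 3 of 10, stand beside 27.3% and 8.41% of all tested genes. The split depended on the scaling, with 5 genes higher in early and 1 in late under TMM scaling, and 7 and 1 under geometric mean, quantile and total scaling. Of all tested genes, 17.5% were called higher in early under TMM scaling and 20.2 to 25.4% under the other 3, beside 23.3% and 18.9 to 21.4% higher in late. The list median was 0.19 beside -0.18 for all tested genes, a difference of 0.37 as deposited. NDRG1, a stress-response gene induced by low oxygen, was 227 to 485 in early and 664 to 1693 in late tumours (log2 fold change -1.60, SE 0.31, limma BH adjusted p = 0.00420). GPI, the glycolytic enzyme glucose-6-phosphate isomerase, was 1100.4 to 1749 in early and 1650.3 to 4221 in late tumours (log2 fold change -0.76, SE 0.24, limma BH adjusted p = 0.0350). GPI was not called under any of the 4 other scalings, while NDRG1 was called under all of them. With DV200 as a covariate neither was called (limma BH adjusted p = 0.141 for NDRG1 and 0.163 for GPI). GPI was also not called with male dogs only and was called in 3 of the 10 fits that left out 1 sample.

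The 3 genes of the list higher in early tumours were NT5E, ADORA2A and ENTPD1. NT5E, the enzyme CD73 that makes adenosine outside the cell, was 436 to 1519 in early and 141 to 326 in late tumours (log2 fold change 1.81, SE 0.41, limma BH adjusted p = 0.00813). ADORA2A, an adenosine receptor, was 329 to 613 in early and 128 to 202 in late tumours (log2 fold change 1.38, SE 0.21, limma BH adjusted p = 0.00167). ENTPD1, the enzyme CD39 that acts upstream of CD73, had a log2 fold change of 0.81 (limma BH adjusted p = 0.0209). With DV200 as a covariate NT5E and ENTPD1 were not called (limma BH adjusted p = 0.0756 and 0.0506), and ENTPD1 was not called with male dogs only (limma BH adjusted p = 0.126). All 3 genes are also expressed by immune cells. SLC16A3, a lactate transporter, and CREBBP, a coactivator of HIF-1, were at 0.80 and 0.24 (limma BH adjusted p = 0.0797 and 0.213), and both were called higher in early under all 4 other scalings.

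**Figure D3:**
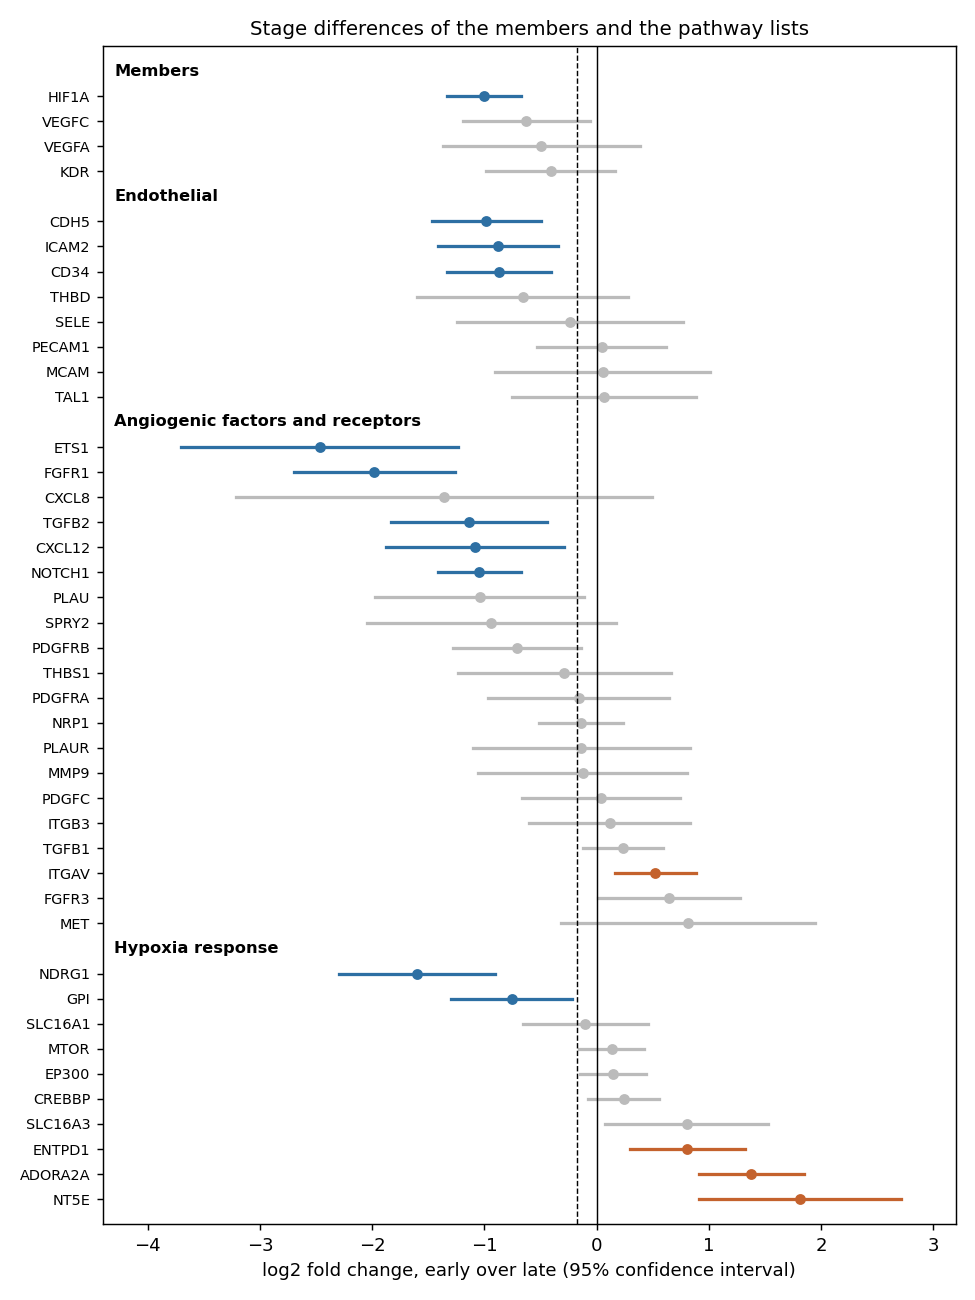
Log2 fold change of early over late (horizontal axis, points) with its 95% confidence interval (lines) for the 4 members and the 38 genes of the 3 lists. Blue marks genes called higher in late, orange genes called higher in early and grey genes not called at a BH adjusted p of 0.05, with the solid line at 0 and the dashed line at the median of all tested genes, -0.18.

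VEGFA followed GPI closely from tumour to tumour, within both stages. GPI was the gene most like VEGFA in the whole table, with r = 0.93 over the 10 tumours after removal of the stage means, 0.90 among the early and 0.98 among the late ones. Early replicate 4 was lowest of the early tumours in both genes, at 214 for VEGFA and 1100.4 for GPI. Late replicate 5 was highest in both, at 1167 and 4221. Leaving out either stage's extreme or any other sample, or using another scaling, kept r between 0.89 and 0.95. GPI was chosen for having the highest r of all tested genes, which favours a high value and which these refits do not address. Among the other listed hypoxia genes VEGFA had an r of 0.76 with SLC16A3, 0.54 with SLC16A1 and 0.45 with NDRG1, but -0.57 with MTOR, and its median over the 10 genes was 0.00.

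The next genes most like VEGFA were LOC111094769 and LOC484306 (r = 0.79 for both), of which LOC111094769 lay near background, at 26.1 ± 6.06 (SD, n = 5) in early tumours. VEGFC was most like IKBKE, a kinase of the NF-kB and interferon pathways (r = 0.89), the kinase SRC (0.84) and TNFRSF14, a receptor of the tumour necrosis factor family (0.82). All 3 of these were called higher in late at BH, SRC and TNFRSF14 under the deposited scaling but under none of the other 4, and with DV200 as a covariate or with male dogs only none of the 3 was called. Within stages the 4 members had little in common, with an r between -0.31 for VEGFA with KDR and 0.35 for KDR with HIF1A. HIF1A and VEGFA had an r of 0.00.

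HIF1A was most like CXCL13, a B cell attracting chemokine (r = 0.89), CEACAM1, an adhesion molecule (0.84), and IL6, an inflammatory cytokine (0.81). These likenesses leaned on early replicate 2, the early tumour with the most HIF1A, without which they were 0.79, 0.67 and 0.56. With the 10 genes of the hypoxia list HIF1A had a median r of -0.23, 3 of the 10 being above 0. Its lowest r was -0.63 with ADORA2A.

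Markers of other cells moved with stage and so with HIF1A. All 5 T cell markers rose in late tumours, beside 27.3% of all tested genes, and their summed normalized counts were 368 to 7134 in early and 9317 to 13612 in late tumours, with no marker at 0. CD3E, a chain of the T cell receptor complex, had the most negative log2 fold change of the marker lists, -3.18 (limma BH adjusted p = 0.0318). It was called in 5 of the 10 fits that left out 1 sample, and not with DV200 as a covariate or with male dogs only, at -3.82 to -2.10 over all 27 alternatives. In early replicates 1 to 5 it was 42.3, 716, 3402, 2090.4 and 275, and in late replicates 6134, 5024, 3853, 6011 and 5160.

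The 2 early tumours with the most CD3E, replicates 3 and 4, had the lowest HIF1A counts of all, 799 and 774. Early replicates 1, 2 and 5, with CD3E counts of 42.3, 716 and 275, had HIF1A counts of 902, 1145 and 868. The part of T cells in the difference between the stages was not tested.

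Of 6 Langerhans and dendritic cell markers, FLT3 and FCER1A rose in early tumours, 2 of 6 beside 8.41% of all tested genes, and none of the other 4 passed the test. FLT3, a growth factor receptor of dendritic cells, had the largest log2 fold change of the marker lists, 2.49 (limma BH adjusted p = 0.00141). The summed level of the 6 was 1559 to 4825 in early and 979.8 to 1575 in late tumours, with none at 0. CD207, the gene of langerin and a defining marker of Langerhans cells, exceeded background in 1 of 5 early and 1 of 5 late tumours. That probe is thus uninformative about the cell of origin. Summed endothelial markers were 1267 to 1978 in early and 1281 to 2535 in late tumours. Macrophage, keratinocyte, fibroblast and mural, and neutrophil marker sums overlapped between the stages as well. Single markers of these lists nevertheless rose in late tumours, namely CD68 and MSR1 of 5 macrophage markers (log2 fold changes -1.29 and -1.67, limma BH adjusted p = 0.00406 and 0.0369) and THY1 of 5 fibroblast and mural markers (-1.58, limma BH adjusted p = 0.00127). These 2 of 5 and 1 of 5 stand beside 27.3% of all tested genes. The other 3 macrophage markers did not pass the test, with MRC1 at 1.00, CD14 at -0.35 and CD163 at -0.31 (limma BH adjusted p = 0.0508, 0.694 and 0.679). CD68 and THY1 did not overlap between the stages, and the part of these cells in the results was not tested.

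**Figure D4:**
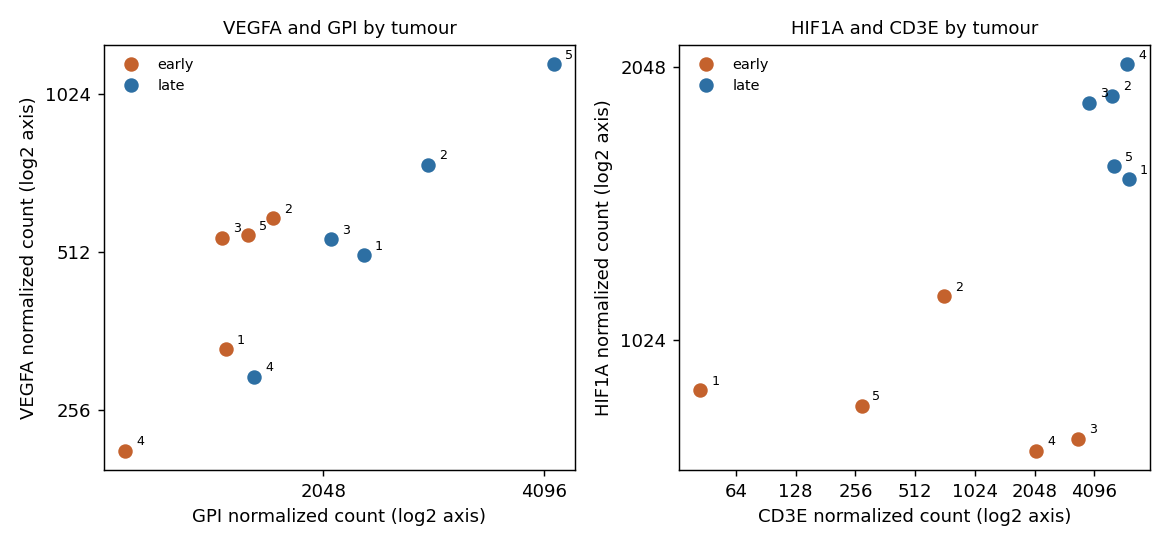
Normalized counts of VEGFA against GPI (left) and of HIF1A against CD3E (right) in each of the 10 tumours, on log2 axes, early in orange and late in blue, with replicate numbers beside the points. VEGFA rises with GPI within both stages, and HIF1A lies between 774 and 1145 in the early tumours, whose CD3E counts span 42.3 to 3402.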

How the data were processed

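RNA of 10 FFPE tumours was hybridised to the nCounter Canine IO Panel. The authors normalized the counts in nSolver with default settings, that is by positive controls and then housekeeping genes, and deposited the resulting signal as a table of 800 genes and 14 control probes. The labels describe the records as re-analyses of earlier ones. The depth was recovered from the smallest step of each sample's values, of which at least 99.4% came out whole within 0.0051 counts. Groups came from the sample titles. Genes with a mean of at least 20 (761 of 800) were tested on log2(normalized count + 1) with limma 3.58.1 (lmFit, eBayes with trend) in R 4.3.3, early against late, with BH and BY adjustment over all tested genes. The added 1 makes differences of low genes appear smaller than they are. Fits were tested on simulated data. The ratios of members used exact permutation tests.

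The members and lists were chosen with earlier results of these data known. The genes named were the members, from each list up to 6 called genes with the smallest p and the 2 largest uncalled, the 3 genes most like each member and the extreme marker genes. PECAM1, MCAM, SLC16A1, MTOR, FCER1A, CD207, CD68, MSR1, MRC1, CD14, CD163 and THY1 were named after their values were seen. Sequences and gene positions were not used here.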

Additional observations from a re-analysis of the deposited data

Results flagged for a closer look

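In 5 of the 72 groups of 5 tumours checked (36 named genes in 2 stages), 1 sample lay farther from the rest than Dixon's critical value of 0.71 for the gap over the range allows, and chance marks about 1 group in 20. Of these 5 values, 4 came from early replicate 2. There, CXCL8 was 1937 normalized counts where the other early tumours had 55.1 to 158. IL6 was 1496 beside 51.1 to 203. CXCL13 was 2853 beside 47.6 to 401.7. IKBKE was 1357 beside 763 to 885. The same tumour had the highest early value of all 4 members, none of which stood apart by this measure. CXCL13 and IL6 had been named for their likeness to HIF1A and IKBKE for that to VEGFC. They are thus not an independent check on this tumour. In late replicate 2, THBD was 175 beside 54.0 to 83.2 in the other late tumours.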

How the results depend on the processing

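Under 27 alternatives HIF1A kept its direction and its BH call, with log2 fold changes of -1.09 to -0.61 and limma BH adjusted p of 0.000768 to 0.0409, the highest with DV200 as a covariate. It met the BY and 2-fold criterion in 12 of them, and in 4 of the 10 that left out 1 sample. VEGFA was 0.015 with quantile scaling, and KDR was 0.23 with quantile scaling and 0.12 with DV200 as a covariate. Leaving out 1 sample gave -1.09 to -0.95 for HIF1A, -0.79 to -0.49 for VEGFC, -0.74 to -0.25 for VEGFA and -0.51 to -0.23 for KDR, with 1 to 2 members called, 211 to 269 genes called at BH and 39 to 98 at BY and 2-fold (85 with all samples, lowest without late replicate 1). The BY and 2-fold count was 0 with DV200 as a covariate and 0 with male dogs only, where 45 and 133 genes were called at BH beside 272 with all samples and no covariate.

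The endothelial list median was -0.061 with geometric mean scaling, -0.073 with quantile scaling and 0.16 with male dogs only. That of the angiogenic list was 0.17 and 0.24 with geometric mean and quantile scaling. That of the hypoxia list was 0.58, 0.39, 0.63 and 0.46 with geometric mean, TMM, quantile and total scaling. Leaving out 1 sample gave list medians of -0.62 to -0.20, -0.49 to -0.05 and 0.14 to 0.25.

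Signs turned for SELE (0.15, 0.30 and 0.029 with geometric mean, quantile and total scaling, 0.83 with DV200 as a covariate, 0.21 with male dogs only), THBD (0.10 with male dogs only), TNFRSF14 (0.0053 with quantile scaling) and IL6 (-0.014 with array weights, -0.35 to 0.86 on leaving out 1 sample). The cause was not tested.

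Replicate numbers are shared by the stages but do not pair the tumours: correlations of same-numbered samples ran from -0.20 to 0.16, and 1 of 5 early samples correlated best with its own number. With the replicate number as a block, 228 genes were called at BH and 1 at BY and 2-fold, 1 member was called (HIF1A, limma BH adjusted p = 0.0147), and the list medians were unaltered. Extraction batches held 1 stage each, and with batch as a random block HIF1A was at -0.99 (limma BH adjusted p = 0.000768). This fit gave the lowest p for HIF1A of the 27 alternatives, and it cannot separate batch from stage. CDH5 in early tumours, CD207 and LOC111094769 lay near background, so their levels are uncertain.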
